A study of Mus musculus with 32 samples.

Results

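The regions described here are the sites of open chromatin that ranked among the strongest in every library of the series. Open chromatin was measured by ATAC-seq, in which a transposase inserts sequencing adapters into accessible DNA, in mouse haematopoietic stem and progenitor cells (HSPCs). Each of 16 lists of called peaks was cut to its 19100 strongest autosomal peaks by the authors' peak p, overlapping peaks were merged over the lists, and a merged region was kept where its strongest peak was among the first 3820 of every list. This gave 2031 members of 31846 merged regions (6.38%), of which 10947 held a peak in all 16 lists. The members were therefore selected on the measured peak p, and their high rank and low spread are a description, with no test.

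The HSPCs (lineage-negative, cKit-positive, Sca1-positive, CD45.1+/2+) were wild-type donor cells sorted from the marrow of transplanted mice. In AF9-experienced mice, lethally irradiated CD45.2 C57BL/6J recipients had received 800000 of these wild-type marrow cells with 200000 CD45.1 marrow cells homozygous for an inducible human MLL-AF9 fusion (hMLL-AF9), a leukaemia driver, and for its inducer rtTA. In naive mice the 200000 cells were hMLL-AF9-null and homozygous for rtTA alone. All mice were left for 6 to 8 weeks, were under doxycycline for 5 weeks and off it for 4 weeks, and were killed 24 hours after PBS or after LPS, a bacterial lipopolysaccharide sensed by Toll-like receptor 4. After PBS there were 4 lists of naive and 4 of AF9-experienced mice, and after LPS 3 and 5, each from 1 biological replicate labelled with 2 technical libraries. The sorted cells never carried MLL-AF9, so the model shows exposure to such cells and not the fusion's action within the cell, and every group, controls included, was irradiated, transplanted and treated with doxycycline.

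A gene promoter is the stretch before the transcription start where general factors assemble RNA polymerase. In mammals many promoters of genes active in all tissues lie in CpG islands, stretches rich in G, C and the dinucleotide CpG, stay free of nucleosomes, and often fire in both directions. SP and KLF zinc-finger factors bind GC boxes there, and NF-Y binds the CCAAT box. NRF1 binds a GC-rich palindrome in promoters of mitochondrial genes, and ETS factors bind a GGAA core. Enhancers that set blood cell identity lie mostly outside promoters and are bound by factors such as RUNX, GATA and PU.1.

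The promoters of 9 members are shown because they carry, several times over, letters that were more common in member promoters than in other promoters. All come from RefSeq on GRCm38.p6, run 5′ to 3′ on the gene's strand, end at or before the base ahead of the tabled start, and leave out bases inside any gene model. Positions count back from the start, which follows -1, and give the first base of a match on the printed strand. In the first 5, capitals mark CCAAT or its reverse complement ATTGG.

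H3c6 encodes a replication-dependent histone H3 and is on the minus strand at chr13:23562386-23562635. Hnrnpc, for an hnRNP that packages pre-mRNA, is on the minus strand at chr14:52104040-52104240. Eif4a1, for the RNA helicase of translation initiation, is on the minus strand at chr11:69672424-69672673. Mrpl41, for a mitochondrial ribosomal protein, is on the minus strand at chr2:24975099-24975348. Btg2, for an antiproliferative protein of the immediate early class, is on the minus strand at chr1:134079156-134079405.
H3c6: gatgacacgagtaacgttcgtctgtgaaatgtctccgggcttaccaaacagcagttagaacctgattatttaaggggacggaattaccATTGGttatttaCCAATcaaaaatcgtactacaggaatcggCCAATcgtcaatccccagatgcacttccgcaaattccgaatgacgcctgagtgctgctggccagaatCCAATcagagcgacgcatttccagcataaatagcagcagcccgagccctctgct
Hnrnpc: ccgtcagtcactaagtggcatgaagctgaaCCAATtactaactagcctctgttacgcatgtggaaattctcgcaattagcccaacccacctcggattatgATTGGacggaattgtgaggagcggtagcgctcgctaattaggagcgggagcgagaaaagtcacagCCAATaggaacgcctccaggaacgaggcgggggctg
Eif4a1: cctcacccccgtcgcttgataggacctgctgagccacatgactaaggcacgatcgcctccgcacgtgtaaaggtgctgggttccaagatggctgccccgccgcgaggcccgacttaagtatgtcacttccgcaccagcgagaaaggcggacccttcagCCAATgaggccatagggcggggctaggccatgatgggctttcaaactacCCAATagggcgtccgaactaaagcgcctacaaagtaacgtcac
Mrpl41: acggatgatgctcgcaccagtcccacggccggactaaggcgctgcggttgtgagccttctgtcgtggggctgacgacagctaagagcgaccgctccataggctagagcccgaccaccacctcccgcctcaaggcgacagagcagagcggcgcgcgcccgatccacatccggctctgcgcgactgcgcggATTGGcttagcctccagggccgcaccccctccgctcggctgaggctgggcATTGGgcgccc
Btg2: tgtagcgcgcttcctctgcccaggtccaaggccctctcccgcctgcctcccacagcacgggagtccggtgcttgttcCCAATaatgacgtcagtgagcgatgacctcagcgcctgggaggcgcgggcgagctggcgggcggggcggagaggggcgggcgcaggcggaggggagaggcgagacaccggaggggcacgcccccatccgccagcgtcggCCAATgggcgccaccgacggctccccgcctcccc
The H3c6 stretch holds 4 matches, at -162, -150, -121 and -54. Hnrnpc holds 3, at -189, -119 and -54. The other 3 stretches hold 2 each.

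In the next pair, capitals mark the NRF1 letters GCGCATGC or their reverse complement GCATGCGC; where both overlap, the run of capitals is the full palindrome and counts as 2 matches. Snrnp70 encodes a core protein of the U1 spliceosomal particle (minus strand at chr7:45395743-45395992). Psma2 encodes a subunit of the proteasome core (plus strand at chr13:14613038-14613241), and its stretch fills the whole gap to the start of Mrpl32, a mitochondrial ribosomal protein gene on the opposite strand.
Snrnp70: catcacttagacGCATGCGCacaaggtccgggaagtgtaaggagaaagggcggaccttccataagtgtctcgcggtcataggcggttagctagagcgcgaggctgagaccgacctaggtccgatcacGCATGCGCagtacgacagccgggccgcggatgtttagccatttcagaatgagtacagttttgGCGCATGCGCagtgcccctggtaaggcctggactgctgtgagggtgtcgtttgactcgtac
Psma2: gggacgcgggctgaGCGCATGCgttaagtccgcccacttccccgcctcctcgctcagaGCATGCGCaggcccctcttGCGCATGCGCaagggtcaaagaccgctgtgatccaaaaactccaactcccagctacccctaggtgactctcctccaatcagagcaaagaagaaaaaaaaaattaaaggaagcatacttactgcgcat
Both stretches hold 4 matches, and in both 2 of the 4 overlap in 1 full palindrome, at -61 in Snrnp70 and at -127 in Psma2.

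In the last pair, capitals mark the GC box GGGCGG or its reverse complement CCGCCC. Pkn2, for a protein kinase, had the highest mean rank of all members (minus strand at chr3:142882005-142882254). Eif3j1 encodes a subunit of initiation factor eIF3 (plus strand at chr2:122028330-122028579).
Pkn2: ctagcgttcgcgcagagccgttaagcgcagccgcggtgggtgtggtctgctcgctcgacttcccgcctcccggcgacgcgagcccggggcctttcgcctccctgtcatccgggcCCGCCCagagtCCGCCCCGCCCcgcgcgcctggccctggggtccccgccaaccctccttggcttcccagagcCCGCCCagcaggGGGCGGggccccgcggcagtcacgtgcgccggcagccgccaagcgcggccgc
Eif3j1: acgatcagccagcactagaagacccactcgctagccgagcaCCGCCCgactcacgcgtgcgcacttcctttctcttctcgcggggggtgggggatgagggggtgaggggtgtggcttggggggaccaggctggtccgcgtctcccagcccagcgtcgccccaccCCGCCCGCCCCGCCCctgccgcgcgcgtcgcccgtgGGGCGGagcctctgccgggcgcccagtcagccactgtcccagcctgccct
Each holds 5 matches, some of them overlapping.

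Peak lists give no total read depth. The lists held 19448 to 88816 peaks, and 3 of them were short (replicate 1 of naive PBS, replicate 3 of naive LPS and replicate 1 of AF9-experienced PBS), with 19448 to 39464 peaks against 60841 to 88816 in the other 13. Gene ends of the HSPC markers Flt3, Kit, Meis1 and Cd34 held regions at mean percentiles of 87.0, 69.2, 49.6 and 48.9, where 100 is the strongest peak of a list and 0 means no peak among its 19100 strongest. Ly6a, the gene of Sca1, had no region at its ends. Of 14 lineage genes, 9 stood at 0 at their ends, among them Cd3e, Cd8a, Itgam, Ly6g and S100a8, and the largest of the other 5 were Klf1 (87.0) and Cd79a (24.6). None of the marker genes had a member at an end. In sorted bulk cells, fewer cells with an open site and less signal per cell cannot be told apart.

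Of the regions, 6038 were among the first 3820 of at least 1 list, and the members filled 53.2% of those places in each list. Another 473 regions missed the limit in 1 list only; that list was AF9-experienced LPS 5 for 107 of them, naive PBS 1 for 98 and AF9-experienced PBS 1 for 89. None of these misses was the absence of a peak. The mean percentile of a member over the 16 lists ran from 83.8 to 99.9 with a median of 93.5, and its SD over lists had a median of 2.87 percentile points. Just inside the limit stood Ndc80 and Spdya (1 region, lowest percentile 80.02), Fry (80.02) and Pold3 (80.04). Just outside stood Gpalpp1 and Nufip1 (79.99), Atg2a (79.99), and Eef1d and Tigd5 (79.99).

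Region coordinates are those of the deposited lists, on GRCm38. The Pkn2 region (chr3:142881073-142882728) stood at 99.6 to 100 in all 16 lists, with a mean of 99.94 and a fold enrichment of 10.3 to 22.4. The Tsga10 region, at a gene named for its testis expression (chr1:37864540-37865574), stood at 99.8 to 100 (mean 99.93; fold 11.5 to 19.8). It also had the smallest SD of all members, 0.0598. The next were a region shared by BC005624 and Usp20, then Ralgapa2, Rad23b (a carrier of ubiquitinated proteins and DNA repair factor), Napepld (a lipid enzyme), a region shared by 2810006K23Rik and Mphosph9, Angptl6, Strn and Rnf44, all at means of 99.82 to 99.93. The widest spread belonged to Ubr4, a ubiquitin ligase gene (SD 5.97, from 80.1 to 97.9), Myo15b (5.68), Csgalnact2 (5.64), Mnt (5.63) and the region of Exosc6 and Aars (5.49).

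The members lay at gene ends. Of the 2031, 1789 (88.1%; 95% exact binomial interval 86.6% to 89.5%, counting error only) were within 1 kb of an end of a protein-coding gene model, taken at either end because the annotation gives no strand. The same share was 61.8% in other regions with a peak in all 16 lists and 18.5% in regions of fewer lists. Over all regions it was higher in each class of mean strength, from 16.4% at mean percentiles of 0 to 20 through 29.2%, 45.8% and 68.1% to 86.7% at 80 to 100. Strong regions that failed the rule (mean percentile of 80 or more) stood at 85.1%, and those that missed the limit in 1 list at 89.2%.

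**Figure D1:**
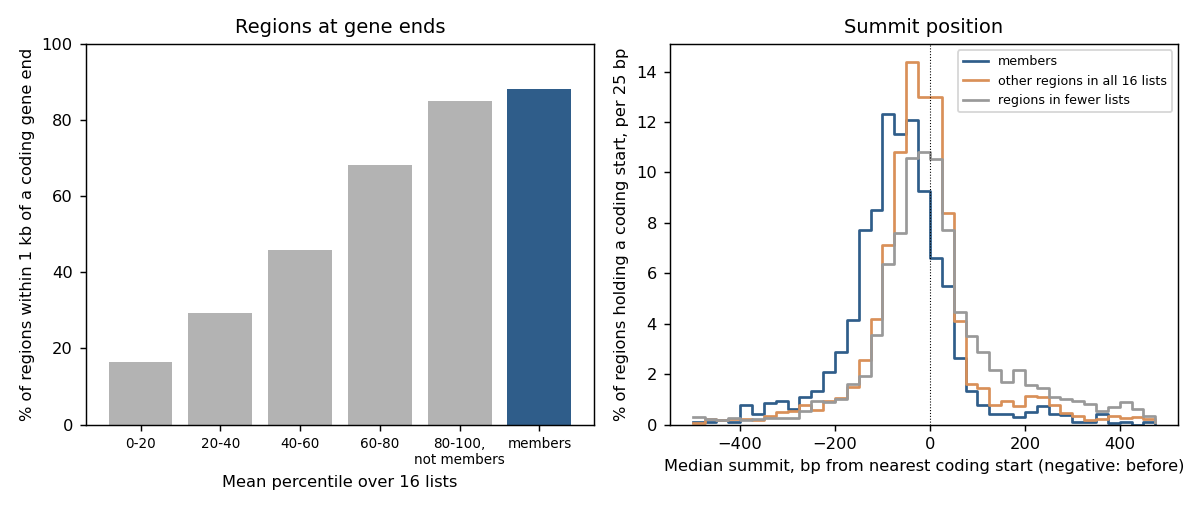
Left, percent of merged regions within 1 kb of a protein-coding gene end, by mean percentile over the 16 lists (grey bars) and in the members (blue bar). Right, distance in bp from the nearest tabled coding start to the region's median peak summit, as percent of regions per 25 bp, for members, other regions in all 16 lists and regions in fewer lists. The share at gene ends climbs from 16.4% to 88.1%, and the members' summits centre before the start, at a median of -66.5 bp.

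Ends of 2 or more coding genes lay within 1 kb of 440 members (21.7%), against 11.9% of other regions in all lists and 1.67% of regions in fewer lists. Strong regions that failed the rule were near the members, at 21.1% of those that missed the limit in 1 list and 19.0% of those with a mean percentile of 80 or more. Among the 1632 members that held a tabled coding start, 239 (14.6%) held starts on both strands facing away from each other, against 8.45% and 1.52%. Psma2 and Mrpl32 are such a pair, and so are Ndufaf8 (an assembly factor of respiratory complex I) and Tepsin (an adaptor-associated trafficking protein). The peak summit lay before the nearest start in 78.4% of these members, at a median of -66.5 bp (quartiles -123 and -10), against -23 bp in other regions in all lists and -2 bp in regions of fewer lists. Member regions were 1205 bp wide in the median, and the summit moved between lists with a median SD of 28.9 bp. The median gap from a member to the next member was 150 kb, and 1.67% lay within 10 kb of another. Among the 8916 other regions in all lists these were 35.7 kb and 16.9%. The 2031 members are fewer, so wider gaps follow in part from their number and nothing is read from them. The rule takes autosomes only. On the X chromosome, ranked by the same p limits, 0 of 578 regions passed them in all lists, against 6.38% of autosomal regions, in mice whose sex the labels do not give.

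Of the members, 242 were away from coding gene ends. Inside a coding gene lay 168 of them, 55 had the end of a long noncoding RNA within 1 kb and 11 the end of a small RNA. A coding start from the promoter table fell inside 119 of the 242, since a gene model's ends do not show its inner starts. The strongest was inside Angptl6 (chr9:20877795-20878816; mean percentile 99.82), 1.01 kb from its end. Next came a region at the end of Chaserr, a noncoding RNA that limits the neighbouring chromatin remodeller gene Chd2, 16.1 kb from Chd2 (chr7:73557847-73559333; mean 99.72). Others were a region inside Hint3 (99.69), 1 at 38.4 kb from Ptma, the gene of prothymosin alpha (99.64), and 1 inside Stag1, a cohesin subunit gene, 45.03 kb from its ends (99.51). Only 7 members lay outside genes and over 50 kb from any coding gene end; the one named by the rule was at the noncoding RNA D130051D11Rik, 52.6 kb from Wnt7b (99.38).

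In the 2171 tabled promoters (250 bases before to 50 after the start) whose start lay in a member, median GC was 64.7%, against 61.7% of 5922 promoters in other regions in all lists, 49.3% of 9463 promoters without a region and 57% of all 20084. The median CpG count was 26 in members, 22 in other regions in all lists, 4 without a region and 14 overall. The ratio of observed to expected CpG was 0.854, 0.799, 0.236 and 0.586 in the same order. The 467 promoters in regions that missed the limit in 1 list were close to the members, with a median GC of 63.7%, 25 CpG and a ratio of 0.856.

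These shares describe letters and carry no test. CCAAT, searched on both strands, was in 51.4% of member promoters (1115 of 2171; 95% exact binomial interval 49.2% to 53.5%), against 36.6% in other regions in all lists and 38.1% of all promoters. The interval treats promoters as independent, but the 2171 lie in 1632 members and those in 1 member can share bases, so it may be too narrow. CCAAT was in 44.3% of the 467 promoters in regions that missed the limit in 1 list. Weighting the 5922 promoters in other regions in all lists to the members' GC content gave 34.2% in place of 36.6%. At least 2 copies stood in 26.8% of member promoters, 23.1% of those 467, 14.1% of other open ones and 12.8% of all, and H3c6, Hnrnpc, Eif4a1, Mrpl41 and Btg2 above are examples. The matches in members had a median position of -88 and neighbouring copies were 46 bases apart in the median, against -85 and 43 in other regions in all lists. The GC box GGGCGG was in 80.1% of member promoters, 76.7% of those 467, 68.1% of other open ones (74.96% at the members' GC content) and 47.0% of all. The ZBTB33 letters TCTCGCGA were in 4.38%, 3.64%, 2.55% and 1.36% in the same order.

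Shares of other letters are given for members, then for other regions in all lists. The ETS letters CCGGAAG were in 22.7% of member and 22.2% of other open promoters (11.9% of all), and the NRF1 letters GCGCATGC, which overlap themselves as a palindrome, in 7.37% and 6.35% (3.55% of all). RUNX (TGTGGTT) stood at 3.09% and 3.12% (4.77% of all), PU.1 (GAGGAAGT) at 3.18% and 2.85% (3.18% of all), and E-box letters (CACGTG) at 11.4% and 11.3% (7.89% of all). The GATA letters AGATAA stood at 3.36% and 5.34% (9.57% of all), and the TATA letters TATAAA at 3.32% and 5.98% (12.7% of all). AP-1 letters (TGANTCA) stood at 3.04% and 3.99% (7.06% of all). NF-kB letters (GGGANTTTC) stood at 0.553% and 1.13% (1.09% of all). At the members' GC content the other open promoters held the GATA letters in 3.80% and the TATA letters in 4.50%. A match of letters is a description and shows no binding.

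**Figure D2:**
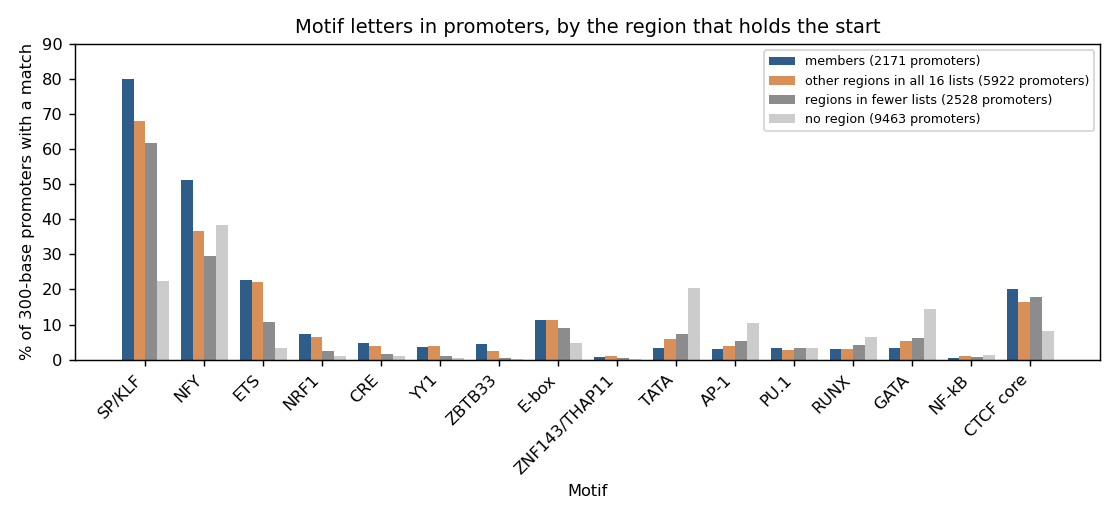
Percent of 300-base promoters (y axis) that hold each searched motif on either strand (x axis), for promoters whose start lies in a member, in another region with a peak in all 16 lists, in a region of fewer lists, or in no region. The NFY letters CCAAT stand at 51.4% in members and at 29.6% to 38.3% in the other 3 sets.

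Of 20661 autosomal protein-coding gene models, 2228 (10.8%) had a member within 1 kb of an end. Among the gene lists, which were chosen with earlier results of these data known, several of the RNA and protein machinery had higher shares. Spliceosome genes had a member in 14 of 39 (35.9%), cohesin and CTCF genes in 4 of 9, translation initiation genes in 9 of 30 (30%), ribosomal protein genes in 22 of 81 (27.2%), proteasome genes in 10 of 38 (26.3%) and mitochondrial ribosomal protein genes in 19 of 78 (24.4%). Cell cycle genes had one in 8 of 35, chromatin regulators in 5 of 28, and complex I genes in 7 of 47. These shares are descriptions and were not tested. The 10.8% also counts genes with no region at an end, since 11815 of the 20661 had one. Among the lists this ran from all 30 translation initiation genes to 2 of 15 liver genes. Shares among only the genes with a region were not compared. As a control, 2 of 13 housekeeping genes had a member, Polr2a (93.2) and Ppia (91.1).

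In splicing, the Snrnp70 region stood at a mean percentile of 98.9, Hnrnpc at 98.7, Srsf2, a serine-arginine splicing factor, at 97.0, and Prpf4, of the U4/U6 particle, at 93.7 in a region shared with Cdc26. In translation, Eif4g2 (98.7), Eif2s2 (97.1), Eif3j1 (96.9) and Eif4a1 (95.8) led. Among cytosolic ribosomal protein genes Rps29 (98.0), Rpl37 (97.4) and Rpl27 (97.1) led, and among mitochondrial ones Mrpl17 (99.8), Mrpl41 (99.3), Mrpl18 (98.6) and Mrps16 (97.4). In the proteasome, the ATPase genes Psmc6 and Psmc4 stood at 98.2 and 94.6, and the lid subunit gene Psmd12 at 93.8. Ccna2, the gene of the S and G2 phase cyclin A2, led the cell cycle list at 98.9 (97.9 to 99.7 over lists), before Mcm4, of the replicative helicase, at 96.1, Pcna, the polymerase clamp, at 95.2, and E2f1 at 93.3. Among cohesin genes, Pds5b stood at 96.9, Smc3 at 96.0 and Wapl at 92.1, and Mau2, the loader subunit, at 83.8, the lowest mean of all members. Ezh2 and Suz12, of the PRC2 histone methyltransferase, stood at 95.4 and 92.8, beside Asxl2 (94.4) and Hdac1 (93.1). H3c6 (90.6) was the single one of 67 histone genes with a member.

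**Figure D3:**
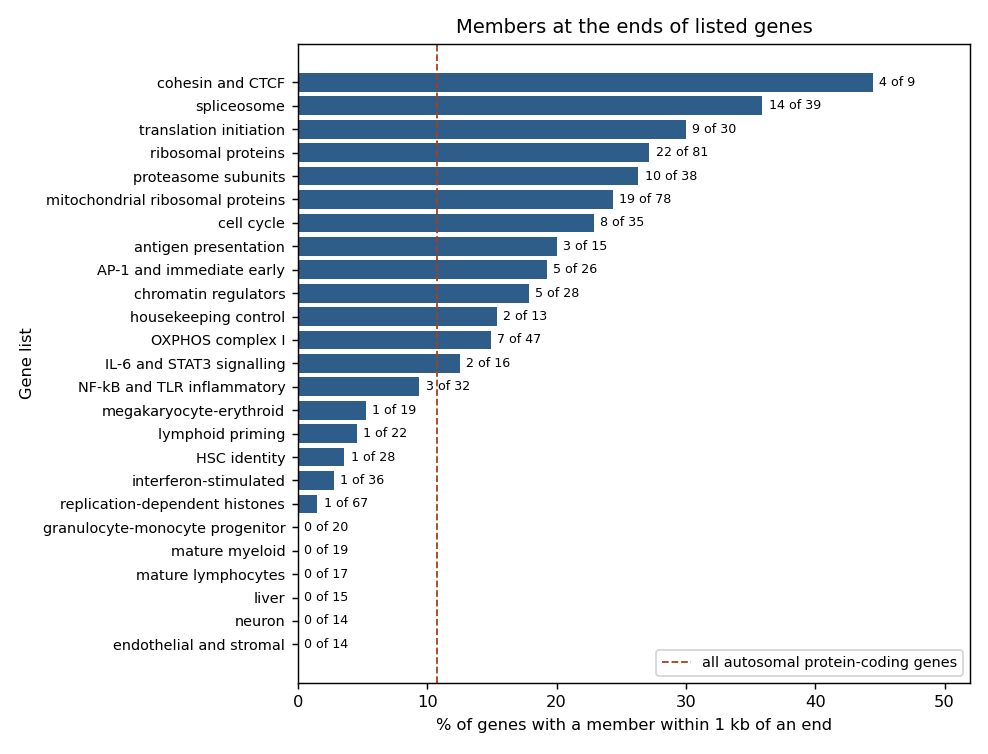
Percent of the genes of each list (y axis) that had a member within 1 kb of an end (x axis), with the count beside each bar; the dashed line is the share of all autosomal protein-coding genes, 10.8%. That share also counts genes with no region at an end. Spliceosome, translation and proteasome lists lie right of the line, and the lists of stem cell, granulocyte, lymphocyte and non-blood genes lie left of it or at 0.

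Few genes of blood cell identity had a member. Of 28 HSC identity genes 1 had a member, and so did 1 of 19 megakaryocyte-erythroid genes, Nfe2, a factor of platelet formation (mean percentile 92.6), and 1 of 22 lymphoid genes, Tcf4 (93.8). None of 20 granulocyte-monocyte progenitor, 17 mature lymphocyte, 19 mature myeloid, 14 endothelial and stromal, 15 liver or 14 neuron genes had one. Within 50 kb of 16 regulators of blood formation, 13 had no member. The share over all coding genes at this distance was not computed, so whether that is few cannot be told. Runx1 had 14 regions in that distance, the strongest at a mean percentile of 77.9, Meis1 had 13 (60.6) and Erg 11 (42.5). The other 3 had 1 member each, at the end of another gene, as at Slc39a13 beside Spi1 (98.2) and at Fignl1 beside Ikzf1 (91.6).

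Immediate early genes had a member in 5 of 26, with Klf2, a factor of lymphocyte quiescence, at 96.8, Dusp2, a MAP kinase phosphatase, at 92.4, Jund at 91.6 and Btg2 at 87.4. NF-kB and Toll-like receptor genes had one in 3 of 32: Tnfaip3, the feedback inhibitor A20 (92.6), Relb (91.4) and Nfkbib (90.1). Stat3 (97.3) and Stat5a (89.5) were the 2 of 16 IL-6 and STAT3 genes. H2-K1 (88.8) and the shared start of Tap1 and Psmb9 (87.6) made 3 of 15 antigen presentation genes, and Stat2 (89.9) was the single one of 36 interferon-stimulated genes. None of these passed the test for LPS in ranks, described next.

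Ranks after LPS were compared in one limma fit over the 23554 regions found in 3 or more lists, with Benjamini-Hochberg adjustment over all of them and a call at an adjusted p under 0.05. Since every member lies above the 80th percentile in all lists, no member could differ by 20 points or more, so a member count below the background follows in part from the rule and nothing is read from it. In naive mice 4 of 2031 members were called, 2 higher and 2 lower after LPS, against 3.22% of all tested regions. In AF9-experienced mice 18 were called, 12 higher and 6 lower, against 5.18%. At an unadjusted p under 0.05 there were 126 members (6.20%) in naive mice, against 15.8% of all tested regions, and 173 (8.52%) in AF9-experienced mice, against 19.2%. Without the 3 short lists the member counts were 51 (23 higher, 28 lower) and 121 (91 higher, 30 lower), beside 1472 and 2400 of the 23554 tested regions called in the same fits. Each of the 22 calls was lost on leaving out at least 1 particular list, most often AF9-experienced PBS 2, AF9-experienced PBS 3 or AF9-experienced LPS 3 (16 calls each), and p-values measure the spread between samples labelled as biological replicates. A difference here is one of rank by the authors' p; ranks by fold are given further on.

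Nudt6 and Rab30 were called higher in both settings, though both calls in naive mice were lost in a fit on only the 2 groups compared (limma adjusted p = 0.143 for both). The region at the diverging starts of Nudt6, a Nudix gene antisense to Fgf2, and Spata5, an AAA ATPase of ribosome maturation (chr3:37419078-37420851), stood at 85.5, 80.3, 84.3 and 84.6 in naive PBS and at 96.5, 89.1 and 92.2 in naive LPS. It stood at 88.8, 84.9, 84.2 and 87.4 in AF9-experienced PBS and at 92.9, 94.6, 93.8, 95.6 and 96.3 in AF9-experienced LPS. The LPS lists lay above the PBS lists without overlap in both settings. The difference was 8.94 points in naive mice (SE 2.23; limma adjusted p = 0.0277) and 8.32 in AF9-experienced mice (SE 1.96; adjusted p = 0.0143). Rab30, the gene of a Golgi Rab GTPase (chr7:92741046-92742255), stood at 94.5, 86.3, 84.8 and 87.0 in naive PBS and at 96.5, 97.3 and 97.0 in naive LPS. In AF9-experienced mice it stood at 87.4, 87.5, 84.3 and 94.3 after PBS and at 95.9, 95.4, 96.0, 96.4 and 94.9 after LPS. Its LPS lists were tight and above all PBS lists, and 1 PBS list of each setting came close to them (94.5 and 94.3). The differences were 8.80 (SE 2.38; limma adjusted p = 0.0421) and 7.35 (SE 2.09; adjusted p = 0.0420). The LPS effects in AF9-experienced and naive mice differed by -0.62 points for Nudt6 and -1.45 for Rab30 (limma adjusted p = 0.9998 for both).

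The other members called higher after LPS were called in AF9-experienced mice. Supt5, the gene of the elongation factor SPT5 (chr7:28338202-28339871), stood at 82.3, 82.5, 83.9 and 86.2 after PBS and at 91.6, 92.3, 90.4, 93.5 and 92.0 after LPS, a difference of 8.24 (SE 2.00; limma adjusted p = 0.0176) with no overlap. A region 8.08 kb from Slc2a3, the gene of the glucose transporter GLUT3 (chr6:122810442-122811964), stood at 88.9 ± 4.59 after PBS (SD, n = 4) and 97.4 ± 0.882 after LPS (n = 5; limma adjusted p = 0.0338). Lrp8, for a lipoprotein and reelin receptor, stood at 88.9 ± 3.74 and 96.9 ± 1.94 (adjusted p = 0.0306), and Kat6b, for a MYST histone acetyltransferase, at 88.5 ± 5.20 and 96.4 ± 1.02 (adjusted p = 0.0442). Rrs1, for a ribosome biogenesis factor, rose by 6.27 points, and a region 14.2 kb from Kifbp by 9.75. The rest were Tcf25, the shared start of Casc1 and Etfrf1, Taok2 and Mphosph6, with rises of 5.39 to 7.33 points.

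Members called lower numbered 2 in naive mice, beside 2 higher, and 6 in AF9-experienced mice, beside 12 higher. Of all tested regions, 287 were lower and 471 higher in naive mice, and 411 lower and 810 higher in AF9-experienced mice. In naive mice, Ptpre, the gene of a receptor-type tyrosine phosphatase (chr7:135537320-135538591), stood at 95.3, 95.1, 95.1 and 95.8 after PBS and 85.8, 89.1 and 85.6 after LPS, a difference of -8.46 (SE 1.99; limma adjusted p = 0.0197). Arf1, for a GTPase of Golgi coat assembly (chr11:59227616-59228871), stood at 92.5, 95.8, 93.3 and 96.7 after PBS and 82.95, 87.8 and 84.7 after LPS, a difference of -9.44 (SE 2.38; adjusted p = 0.0297). In both the groups did not overlap, and in a fit on only the 2 groups compared both calls were lost (limma adjusted p = 0.0705 and 0.0763). In AF9-experienced mice, Afap1, for an actin-crosslinking protein, stood at 96.2 ± 1.54 after PBS (SD, n = 4) and 89.2 ± 1.14 after LPS (n = 5; limma adjusted p = 0.0231), and Cdk5rap3 at 96.7 ± 0.556 and 91.0 ± 2.39 (adjusted p = 0.0384). Chmp7, of the ESCRT-III membrane machinery, stood at 95.1 ± 0.722 and 87.7 ± 2.40 (adjusted p = 0.0416). U2af1, which reads the 3′ splice site, stood at 95.4 ± 2.00 and 88.6 ± 2.60 (limma adjusted p = 0.0448). Cbx8, a Polycomb reader of histone H3, stood at 95.7 ± 0.571 and 90.1 ± 1.53 (limma adjusted p = 0.0462). The region of Cnga4 and Fam160a2 stood at 94.7 ± 3.26 and 86.9 ± 4.10 (limma adjusted p = 0.0410), the 1 call of 22 whose groups overlapped. A call favours groups that lie apart. Over all members, LPS and PBS lists did not overlap in 8.96% in naive and 5.22% in AF9-experienced mice. Over all tested regions the shares were 12.3% and 9.55%. The rule limits how far members can differ, so nothing is read from their lower shares.

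**Figure D4:**
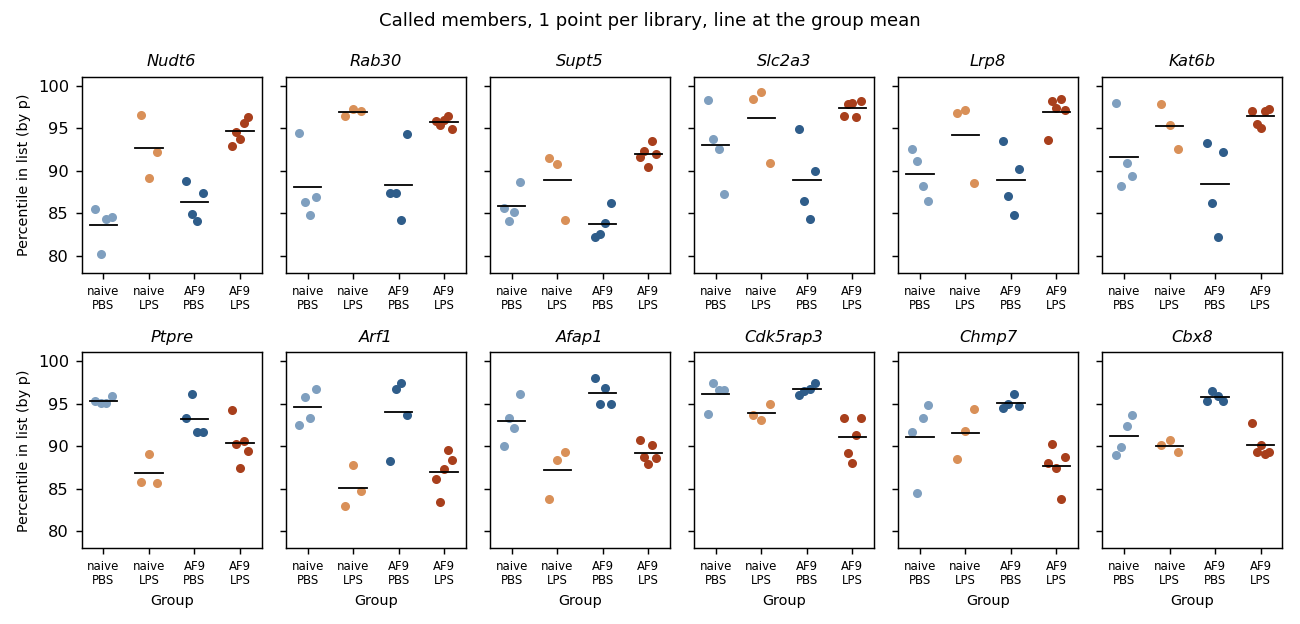
Percentile of 12 of the 20 called members in each list by the authors' p (y axis, 100 is the strongest peak; the axis does not start at 0), by group (x axis), 1 point per library and a line at the group mean. In the setting of the call, LPS lists lie above PBS lists in the top row, as for Nudt6 and Rab30 in both settings. In the bottom row they lie below, as for Ptpre and Arf1 in naive mice. Cnga4, whose groups overlapped, is not among the 12.

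No member was called between AF9-experienced and naive mice. The limma count was 0 of 2031 after PBS, where 0% of all tested regions were called, 0 after LPS, where 0.0127% were, and 0 for the interaction, where 0% were. At an unadjusted p under 0.05 there were 46, 33 and 30 members (2.26%, 1.62% and 1.48%), against 3.20%, 5.39% and 2.94% of all tested regions. The count stayed 0 for all 3 under each alternative fit, single lists left out included. The smallest unadjusted p of an interaction was at Ankrd10 (9.09 points, SE 2.87; limma adjusted p = 0.9998). The naive and AF9-experienced LPS contrasts share no list, and each shares its PBS or LPS lists with the comparisons between mice.

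Width was ranked within each list and tested in the 10947 regions with a peak in all lists. No member was called after LPS in naive mice (0.0183% of tested regions), after LPS in AF9-experienced mice (0.00913%), between mice after PBS (0.00913%) or after LPS (0.00913%), or in the interaction (0%). Unadjusted p fell under 0.05 for 108, 69, 48, 16 and 17 members in that order (5.32%, 3.40%, 2.36%, 0.788% and 0.837%), against 8.97%, 5.57%, 4.89%, 2.14% and 1.97% of the tested regions. The median member difference after LPS was 4.05 width percentiles in naive and 3.07 in AF9-experienced mice, beside 2.83 and 2.24 over all tested regions. The smallest adjusted p belonged to Tesk1, a testis kinase gene, narrower after LPS in AF9-experienced mice by 41.8 width percentiles (SE 9.16; limma adjusted p = 0.388), and to Zfp566 and Chmp7 between mice after PBS (limma adjusted p = 0.419 for both). Nfyb, which encodes the histone-fold B subunit of NF-Y, had a difference of -31.9 after LPS in naive mice (SE 8.64; limma adjusted p = 0.422).

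The fold enrichment of members and of other peaks is given here as a description. Fold enrichment is the authors' ratio of the summit to the local background of the same library and is not scaled between libraries, so each list was set against itself. In the 3 naive PBS lists that were not short, the median fold of members was 16.2, 19.4 and 19.2, and 13.6, 17.3 and 16.5 in the other peaks of the list. In the 3 such AF9-experienced PBS lists it was 20.4, 20.7 and 21.2, against 19.3, 18.2 and 18.3. After LPS, members stood at 19.3 and 14.9 in the 2 such naive lists, against 12.2 and 9.41, and at 19.6, 18.6, 15.2, 15.6 and 15.03 in AF9-experienced lists, against 13.1, 11.1, 8.80, 8.70 and 10.1. The ratio of members to other peaks was 1.06 to 1.19 in these 6 PBS lists and 1.48 to 1.79 in these 7 LPS lists, with no overlap. Members had a median fold of 14.9 to 19.6 in these LPS lists and 16.2 to 21.2 in these PBS lists. Other peaks stood at 8.70 to 13.1 and 13.6 to 19.3. As fold is not scaled between libraries, these values cannot tell whether members or other peaks changed. Peaks that were among the 3820 strongest of a list without being members had medians near those of members, 16.5 to 22.3 in these PBS lists and 13.5 to 19.0 in these LPS lists. In the short lists the ratio was 2.00 and 1.78 after PBS (naive and AF9-experienced, replicate 1 of each) and 1.85 after LPS (naive, replicate 3), so on this scale the treatments overlap over all 16 lists. Set against the median of the whole list before shortening, the ratio was 1.90 to 2.51 in the 8 PBS lists and 2.57 to 3.40 in the 8 LPS lists, with no overlap, short lists included.

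**Figure D5:**
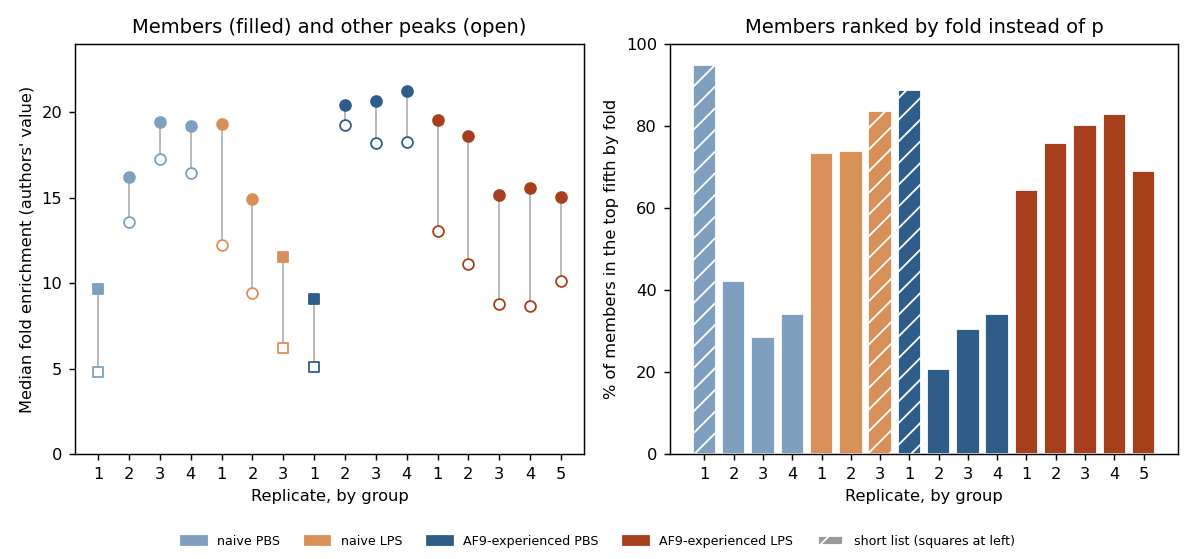
Left, median fold enrichment (the authors' value) of the members, filled, and of the other peaks in the same shortened list, open, for each replicate by group; squares are the 3 short lists. Right, percent of the members that are among the strongest 3820 peaks when the same list is ranked by fold; hatched bars are the short lists. Members exceed other peaks by 1.06 to 1.19 times in the other 6 PBS lists and by 1.48 to 1.79 times in the other 7 LPS lists.

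The rule ranks by p, and a rank by fold gave another order. All members were among the 3820 strongest peaks of every list by p, but by fold the share was 20.8% to 42.2% in the 6 PBS lists that were not short, 64.3% to 83.01% in the 7 such LPS lists, and 94.8%, 88.8% and 83.7% in replicate 1 of naive PBS, replicate 1 of AF9-experienced PBS and replicate 3 of naive LPS. Ranked by fold, 1895 of 2031 members stood higher after LPS in naive mice, with a median of 13.8 percentile points, and 1980 in AF9-experienced mice, with a median of 17.1. By p these medians were 0.16 and 0.22. The shift by fold rank was not computed over all tested regions, so whether it is particular to members cannot be told. In the fold ranks limma called 0 members in naive mice, where 286 of the 23554 tested regions were called, and 53 in AF9-experienced mice, all higher, where 838 were called (520 higher). At an unadjusted p under 0.05 there were 553 and 1236 members, of 4098 and 6017 tested regions. The 14 calls above that were higher by p had fold-rank differences of 20.4 to 41.5 points. Of the 8 that were lower by p, 6 turned positive, Cnga4 (21.9), Cbx8 (16.1), Cdk5rap3 (5.78), Chmp7 (1.02), Ptpre (0.69) and U2af1 (0.38), and 2 stayed negative, Afap1 (-0.50) and Arf1 (-4.02). The members' median -log10 p was 320 to 703 in the 6 PBS lists and 149 to 306 in the 7 LPS lists, and 32.02 to 76.5 in the short ones. The lists' p values thus also differed by treatment, and their part in the fold difference was not tested.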

How the data were processed

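ATAC-seq peak lists of 16 biological replicates were used, 1 list each; how the technical libraries were combined is not given in the sources used here. The submitters' processing notes list BWA, MACS3, Picard, FastQC and Trim Galore with the build GRCm38, giving neither order nor version. Per the labels' protocols, both an Omni-ATAC and a Chromium kit are named; which one applies to these lists is not clear. For every peak, the deposited files hold a fold enrichment (ratio) as well as -log10 p and -log10 q from the authors' peak caller, none scaled between libraries. Read depth is not in these lists.

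Lists were shortened to 19100 autosomal peaks by -log10 p (ties by fold) and merged by 1 bp overlap. A region's percentile is the rank of its strongest peak. Regions found in 3 or more lists were fitted with limma 3.58.1 (R 4.3.3, a mean per group over all 16 libraries, trend and robust options), with Benjamini-Hochberg adjustment at 0.05. The fit was tried on simulated data with shifts larger than any member could show. That trial does not tell how well differences of the members' size are found. Positions, promoters and gene names came from RefSeq (GRCm38.p6), and genes were linked by position only. Motifs were matched as exact letters on both strands, with no genome sequence beyond the promoter table. Alternatives were a rank by fold, other rule limits, a replicate block, fewer lists and single lists left out. The members, gene lists and motifs were chosen with earlier results of these data known. Named are the 10 strongest members, the 10 strongest away from gene ends, up to 4 genes per list, members near 16 blood regulators, the 3 with the smallest p per contrast and direction, those nearest the limit, and the 5 with the largest and smallest SD. All other called members were named after their values were seen. Values of a few genes that the rule names are not reported here.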

Additional observations from a re-analysis of the deposited data

Results flagged for a closer look

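A library stood apart from the rest of its group in 7 results, among 144 group ends examined in groups of 4 or 5; chance gives about 1 in 20 groups. In naive PBS, replicate 1, a short list, had a ratio of member fold to other peaks of 2.00, against 1.12 to 1.19 in the other 3. In AF9-experienced PBS, replicate 1, also short, had a ratio of 1.78 against 1.06 to 1.16, and a median member fold of 9.06 against 20.4 to 21.2. The Kifbp region stood at 94.3 in 1 naive PBS list (the others 83.8 to 85.5) and at 86.9 in 1 AF9-experienced LPS list (the others 94.1 to 96.9). In AF9-experienced LPS, Cbx8 stood at 92.8 in 1 list against 89.1 to 90.1, and Lrp8 at 93.6 in 1 list against 97.1 to 98.4.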

How the results depend on the processing

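The number of members was 570 with lists ranked by fold, 663 with a limit of 1910 peaks in lists of 19100 or of 9550, 3403 with a limit of 5730, and 2033 to 2138 with 1 list left out of the rule. The share at a gene end was 86.4% within 500 bp and 90.8% within 2 kb, and 88.0% to 88.2% with 1 list left out; the other rule limits kept it within its interval. The median ratio of member fold to other peaks was 1.54, and 2.54 to the whole list. CCAAT was in 44.3% of member promoters by fold rank and in 54.4% with a limit of 1910, and with 1 list left out in 50.2% to 51.8%; median GC by fold rank was 61.7%, and the summit stayed before the start (-29 bp by fold rank). These 3 checks were chosen after seeing the data.

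Members called by rank after LPS in naive and AF9-experienced mice were 2 and 5 with the replicate block, 0 and 53 by fold rank, 1 and 3 among regions in all lists, 51 and 121 without the 3 shortest lists, and 0 in naive mice with only the groups of the contrast. Over all tested regions the same fits called 505 and 890, 286 and 838, 71 and 111, 1472 and 2400, and 140 in naive mice. With the replicate block the limma adjusted p of Rab30 was 0.0531 in naive and 0.0671 in AF9-experienced mice. Leaving out 1 list gave 0 to 11 and 2 to 41, with 11 and 38 without naive PBS 1, 8 and 41 without AF9-experienced PBS 1, 0 without naive LPS 3 in naive mice, and 2 and 3 without AF9-experienced PBS 3 and 2 in AF9-experienced mice. Of all tested regions, 1114 and 1636 were called without naive PBS 1, and 909 and 1262 without AF9-experienced PBS 1. Without naive LPS 3 it was 574 in naive mice. Without AF9-experienced PBS 3 and 2 it was 621 and 713 in AF9-experienced mice. By width, the replicate block gave 2 members after LPS in AF9-experienced mice, beside 8 of all tested regions. Leaving out the 3 shortest lists gave 4 there, beside 48 of all tested regions, and 1 between mice after PBS, beside 9. With 1 list left out, 0 to 2 members were called by width, beside 0 to 12 of all tested regions. By rank between mice it was 0, beside 0 to 14. By fold rank 6 calls turned from lower to higher: Cnga4 (21.9), Cbx8 (16.1), Cdk5rap3 (5.78), Chmp7 (1.02), Ptpre (0.69) and U2af1 (0.38). The cause was not tested. Deviations from the group means correlated weakly between same-numbered lists of different groups (21 pairs, r -0.215 to 0.231, 3 over 0.1). In 74 pairs with different numbers r was -0.302 to 0.241, 19 over 0.1. Whether equal numbers mark samples handled together cannot be told from these values. Total depth is not in the lists.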
